A study of Mus with 8 samples.

Results

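Krt6a, Krt6b, Krt16 and Krt17, the stress keratins of the epidermis, and S100a8 and S100a9, whose products pair as calprotectin, are 6 genes read as a sign of wounded or irritated skin. They were looked up by symbol among the 14980 genes that the authors' deposited tables name with a single symbol, and 4 of the 6 were found: Krt6a, Krt16, Krt17 and S100a8. Where a gene had several probesets, the one with the highest average over the arrays was used. No probeset is listed under Krt6b or S100a9 alone, and these 2 genes were not analysed here. The deposited tables keep only probesets with folds of at least 2 or 1.3 in these same samples. A gene on the array that differed little can therefore be missing, and the 4 genes found were in part selected by their differences. Krt6a and Krt17 were among the 11235 genes bright enough to be tested. Krt16 and S100a8 lay below the filter on dim genes, which was an intensity of 35.2, and are given by their values only.

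The measurements came from treated skin, with its hair follicles, of male C57BL6 mice that were 7 weeks old when treatment began. Hair was trimmed and removed in every group, the untreated mice included, and the skin then received 1% minoxidil, 1% keratin, 1% microsphere keratin or MilliQ water (called untreated) on its surface for 20 days. Minoxidil, a vasodilator used against hair loss, was the positive control for hair growth. Keratin is the filament protein of hair and epidermis, here applied as a substance. Each group held 5 mice and gave 2 arrays, numbered 1 and 2. Whether the arrays are separate mice, pools or repeats of the same RNA is not stated in the labels, so every p-value below measures only the spread between arrays, which may be technical.

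Keratins are obligate pairs of a type II and a type I chain. In resting skin the stress keratins belong mainly to hair follicles, nails and other appendages, and keratinocytes between the follicles switch them on when the epidermis is wounded, irritated or inflamed. Calprotectin binds calcium, zinc and manganese. It is abundant in neutrophils and is made by activated keratinocytes, and it signals through Toll-like receptors and RAGE. Because the tissue holds follicles as well as epidermis, Krt6a and Krt17 signal can come from either. In whole skin, fewer cells of a type and less RNA per cell cannot be told apart.

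Minoxidil array 1 stood apart, and untreated array 1 was dim in the control transcripts actin and Gapdh. Over all probesets minoxidil array 1 correlated with the remaining arrays at 0.390 to 0.475, while those 7 correlated among themselves at 0.886 to 0.988. The probeset for the 3′ end of actin gave 47.2 on minoxidil array 1 and 656 on untreated array 1, and 1448 to 1883 on the others. For the 3′ end of Gapdh, a further control, the values were 196 on minoxidil array 1 and 298 on untreated array 1. Keratin array 1 gave 630 for Gapdh, and the others 1006 to 1605. The BioB control went the other way, with 429 on minoxidil array 1 and 738 on untreated array 1, against 91.3 to 208 on the others. Differences of Krt6a and Krt17 are therefore also given without minoxidil array 1 or untreated array 1, and list counts also from the number 2 arrays alone.

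Krt6a, the type II stress keratin, was brightest in the number 1 arrays of both keratin preparations. Its intensity was 135 and 179 in minoxidil skin, 247 and 177 in keratin skin, 248 and 174 in microsphere keratin skin, and 149 and 163 in untreated skin. Both arrays of each keratin preparation lay above both untreated arrays, and the minoxidil arrays spanned the untreated ones. On the log2 scale the group means were 7.28 ± 0.29, 7.71 ± 0.34, 7.70 ± 0.36 and 7.28 ± 0.09 in the same order (SD, n = 2 each). No difference passed the test: keratin minus untreated was 0.43 with a 95% interval of -1.14 to 1.99, and microsphere keratin minus untreated was 0.42 with an interval of -1.15 to 1.98. The limma adjusted p was 1.00 for both. The fit shares 1 estimate of spread across the 8 arrays, so minoxidil array 1 enters the intervals of comparisons without minoxidil too. Over genes tested, the SD of the log2 difference between the 2 arrays was 0.92 in minoxidil skin. It was 0.35 to 0.41 in the other groups. A difference that did not pass is therefore not shown to be absent. Without untreated array 1 these differences were 0.36 and 0.35, and without the number 1 array of the preparation they were 0.19 and 0.16. Minoxidil minus untreated was -0.01 ± 0.69 (SE), and 0.20 without minoxidil array 1.

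A further 2 probesets carry the Krt6a symbol alone. Probeset 1422784 read 39.4 and 67.1 with minoxidil, 120.0 and 62.4 with keratin, 113 and 66.9 with microsphere keratin, and 67.9 and 61.9 in untreated skin. Probeset 1422783 read 56.8 and 43.2 with minoxidil, 72.5 and 46.8 with keratin, 71.9 and 46.3 with microsphere keratin, and 49.6 and 42.8 in untreated skin. In all 3 probesets the number 1 arrays of keratin and microsphere keratin were the highest 2 of the 8. All 3 are listed by the authors for the number 1 pairs of both preparations with untreated skin, at folds of at least 2. The probeset used and probeset 1422784 are listed for no other pair. A difference in those pairs was therefore a condition for finding these 2, and the likeness of the 3 probesets is not an independent result. The keratin and microsphere keratin arrays overlapped the untreated ones in both further probesets. The probesets did not order minoxidil array 1 alike: it was the lowest of the 8 in 2 of them and the third highest in probeset 1422783. The probeset used carries the array maker's _x_ mark, for probes that can match several transcripts. Krt6b, a near-identical neighbour of Krt6a in the RefSeq gene order, may share its signal.

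Krt17, a type I keratin that pairs with keratin 6 chains and is made in the outer root sheath of the follicle, differed by 3.65-fold between its lowest and highest array, or 2.48-fold without minoxidil array 1. Its intensity was 50.8 and 124 in minoxidil skin, 185.5 and 104 in keratin skin, 156 and 127 in microsphere keratin skin, and 74.8 and 122 in untreated skin. Both microsphere keratin arrays were above both untreated arrays, whereas keratin array 2 lay between the untreated arrays. The log2 means were 6.31 ± 0.91 for minoxidil, 7.12 ± 0.59 for keratin, 7.14 ± 0.21 for microsphere keratin and 6.58 ± 0.50 for untreated skin (SD, n = 2 each). Keratin minus untreated was 0.54 (95% interval -0.85 to 1.93, unadjusted p = 0.40, limma adjusted p = 1.00). Microsphere keratin minus untreated was 0.56 (95% interval -0.83 to 1.95, unadjusted p = 0.38, limma adjusted p = 1.00). Without untreated array 1 these differences were 0.18 and 0.20, and without keratin array 1 the keratin difference was 0.12. Minoxidil minus untreated was -0.27 ± 0.61 (SE), and without minoxidil array 1 it was 0.38.

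Krt16, a type I partner of keratin 6 and a common marker of thickened epidermis, stayed below the filter on dim genes in all 8 arrays. Its intensity was 28.5 and 32.5 in minoxidil skin, 34.1 and 35.0 in keratin skin, 29.8 and 31.1 in microsphere keratin skin, and 31.5 and 31.4 in untreated skin. The keratin arrays were the highest 2 and did not overlap any other group (among genes tested, 20.0% were higher than untreated without overlap, 13.1% were lower with minoxidil than with keratin and 10.5% lower with microsphere keratin than with keratin), but the span from the lowest to the highest array was 1.23-fold. Keratin minus untreated was 0.11 on the log2 scale between the number 1 arrays and 0.15 between the number 2 arrays. As the probeset lies below the filter, these differences are given as values only. Krt16 is named only in the authors' deposited table for keratin array 2 against untreated array 2, which lists folds of at least 1.3. A difference in that pair was therefore a condition for finding the gene. Its order among the groups is not an independent sign of a keratin effect.

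S100a8, the smaller chain of calprotectin, was also below the filter in all 8 arrays. It read 28.2 and 28.8 with minoxidil, 29.9 and 28.5 with keratin, 34.2 and 30.1 with microsphere keratin, and 31.7 and 27.3 in untreated skin. Microsphere keratin array 1 was the highest and untreated array 2 the lowest, 1.25-fold apart. Microsphere keratin arrays were above the keratin arrays without overlap, as 5.10% of genes tested were, and both groups overlapped the untreated arrays. Its probeset has the _s_ mark, for probes shared by several transcripts. S100a8 is named only in the authors' deposited table for microsphere keratin array 2 against untreated array 2, which lists folds of at least 1.3. A difference in that pair was thus a condition for finding the gene, and its order among the groups is not an independent result.

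**Figure D1:**
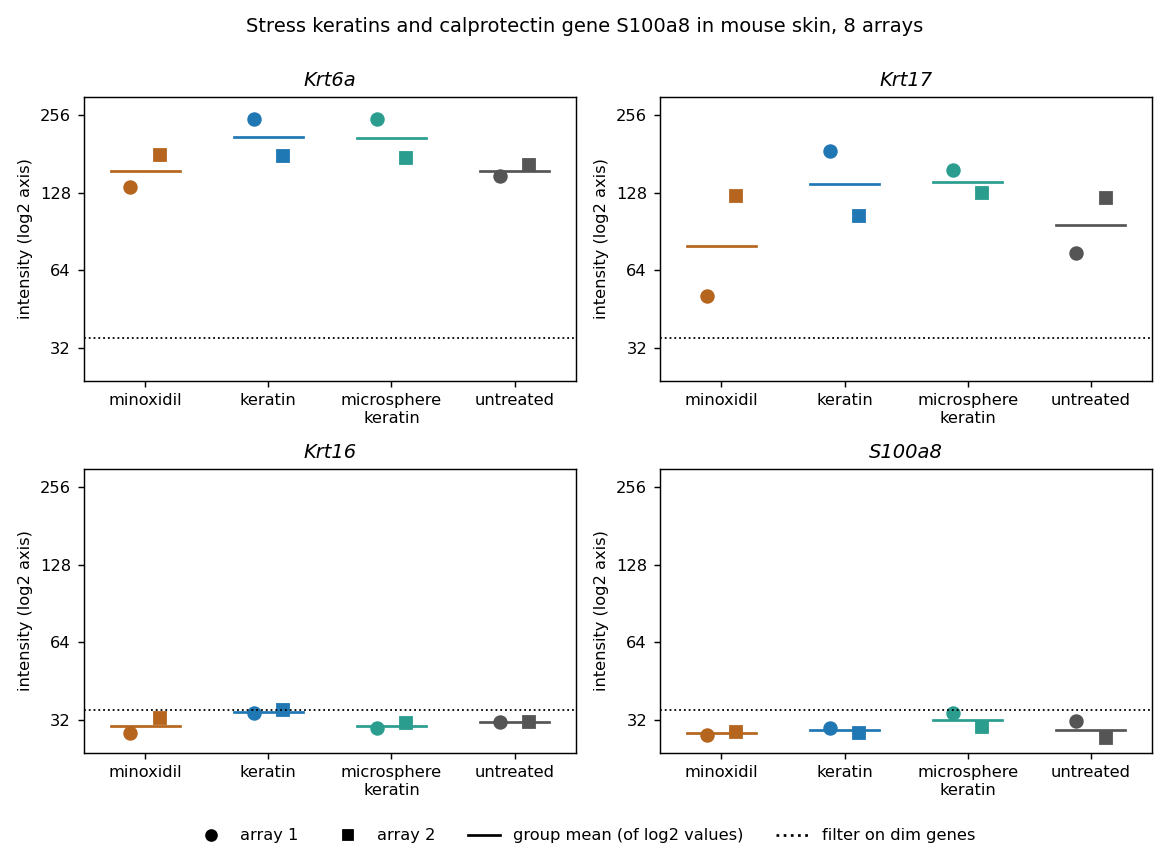
Intensity of the 4 measured genes on each of the 8 arrays, on a log2 axis, by treatment. Circles are number 1 arrays, squares number 2 arrays, bars the group means of log2 values, and the dotted line is the filter on dim genes at 35.2; Krt6a and Krt17 lie above it on every array, and Krt16 and S100a8 lie below it.

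Each treatment was compared with untreated skin to ask whether it left a sign of irritation. Of the 2 genes tested, 0 passed at a limma adjusted p below 0.05 in any of the 6 pairwise comparisons, and so did 0% of all 11235 genes. Neither Krt6a nor Krt17 had an unadjusted p below 0.05 against untreated skin, which 50 genes had under minoxidil, 46 under keratin and 10 under microsphere keratin. Both tested genes were above untreated skin without overlap under microsphere keratin, where 14.7% of all genes tested were. Under keratin this held for Krt6a, where 20.0% of all genes were. Under minoxidil it held for neither, against 7.52% of all genes. The keratin difference was smaller than that of Krt6a in 93.8% of genes tested and smaller than that of Krt17 in 97.2%. For microsphere keratin these shares were 95.1% and 98.5%. The shares are over genes of all brightness, whereas Krt6a and Krt17 were brighter than 97.4% and 93.2% of named genes. Among genes at or above the median brightness, the median difference was 0.15 for keratin and 0.14 for microsphere keratin, against 0.10 over all genes tested in both. The 2 comparisons share the untreated arrays, so they are not independent. The Krt6a probeset used is listed by the authors only for the number 1 keratin and microsphere keratin pairs, at folds of at least 2. Krt17 is listed for these pairs too, and as lower in the number 2 keratin pair. A difference in a number 1 pair was thus a condition for using this Krt6a probeset. Its shares and non-overlap, and in part those of Krt17, are not independent results. Under quantile normalization keratin minus untreated was 0.20 for Krt6a and 0.32 for Krt17, and microsphere keratin minus untreated was 0.19 and 0.32.

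Microsphere keratin was also set against plain keratin. The difference was -0.01 for Krt6a (95% interval -1.58 to 1.56) and 0.02 for Krt17 (95% interval -1.37 to 1.41), with limma adjusted p = 1.00 for both. These intervals are too wide to show that the preparations act alike. Minoxidil minus keratin was -0.43 for Krt6a and -0.80 for Krt17 (limma adjusted p = 0.928 for both). Minoxidil minus microsphere keratin was -0.42 and -0.82 (limma adjusted p = 0.95 for both). Without minoxidil array 1 the values for Krt6a and Krt17 were -0.23 and -0.16 against keratin, and -0.22 and -0.18 against microsphere keratin. Between number 2 arrays alone they were 0.01 and 0.26 against keratin, and 0.04 and -0.03 against microsphere keratin. In order of log2 means, keratin and microsphere keratin were highest for both genes and minoxidil was lowest, but under quantile normalization minoxidil was the highest group for Krt6a, 0.42 above keratin and 0.62 above untreated skin. Without minoxidil array 1, minoxidil lay above untreated skin for both genes. Among neighbours in that order, microsphere keratin and untreated skin did not overlap for Krt6a, and the arrays of the other neighbours overlapped for both genes. None of these differences passed the test.

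Under both keratin preparations the differences of Krt6a and Krt17 were larger between the number 1 arrays than between the number 2 arrays. Between number 1 arrays, keratin minus untreated was 0.73 for Krt6a and 1.31 for Krt17, and 99.5% of genes tested had a smaller difference than Krt17. Between number 2 arrays the values were 0.12 for Krt6a and -0.23 for Krt17, and 6.03% of genes had a difference below that of Krt17. Microsphere keratin minus untreated was 0.74 and 1.06 for Krt6a and Krt17 between number 1 arrays, and 0.10 and 0.06 between number 2 arrays. The medians over all genes tested were 0.19 and 0.02 for keratin in the number 1 and number 2 arrays, and 0.17 and 0.02 for microsphere keratin. Minoxidil minus untreated was -0.14 for Krt6a and -0.56 for Krt17 between number 1 arrays, and 0.13 and 0.03 between number 2 arrays. The number 1 pairs include untreated array 1, which was dim in actin and Gapdh, and keratin array 1, which was lower in Gapdh. A single array stands on each side, so these values have no test. The part of array quality in them was not tested.

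Arrays of the same treatment also differed. Number 1 minus number 2 for Krt17 was -1.29 in minoxidil skin, 0.84 in keratin skin, 0.30 in microsphere keratin skin and -0.71 in untreated skin. The corresponding values for Krt6a were -0.41, 0.48, 0.51 and -0.13. In 3 of the 4 groups the Krt17 difference between arrays of the same treatment was larger in size than the keratin minus untreated mean of 0.54.

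**Figure D2:**
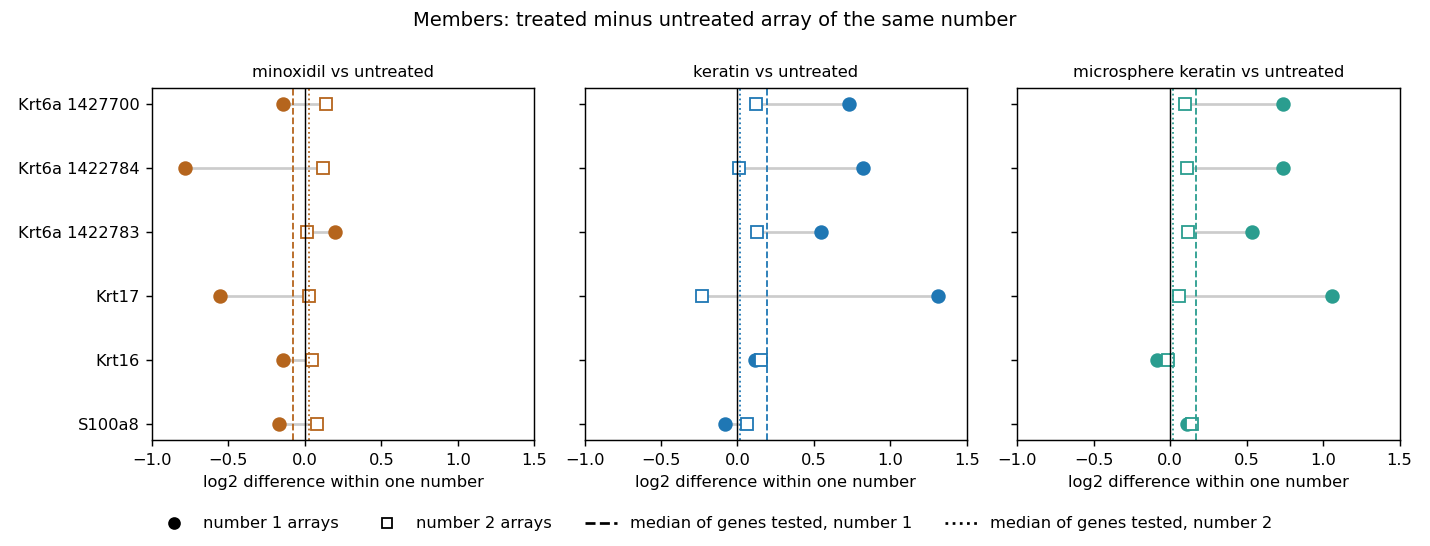
Log2 difference of each treated array from the untreated array of the same number, for the 3 probesets of Krt6a and the probesets of Krt17, Krt16 and S100a8. Filled circles are number 1 arrays and open squares number 2 arrays, with dashed and dotted lines at the medians of all genes tested; for Krt17 under keratin the number 1 value was 1.31 and the number 2 value -0.23.

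The authors' deposited tables hold larger differences for the same arrays, on their own log2 scale. In the authors' deposited table for keratin array 1 against untreated array 1, Krt6a was 11.23-fold, 4.07-fold and 2.95-fold higher by probesets 1422784, 1422783 and 1427700, and Krt17 was 10.13-fold higher. The deposited intensities gave 1.77-fold, 1.46-fold, 1.66-fold and 2.48-fold for the same pairs of arrays. In the authors' deposited table for microsphere keratin array 1, Krt6a was 10.77-fold, 4.37-fold and 2.65-fold higher and Krt17 8.03-fold higher. The number 2 tables list folds of at least 1.3. There Krt6a was 1.43-fold higher with keratin and 1.40-fold higher with microsphere keratin, both by probeset 1422783 of the authors' deposited tables. In these authors' deposited tables Krt17 had a fold of -1.36 with keratin, which means lower, Krt16 was 1.42-fold higher with keratin, and S100a8 was 1.43-fold higher with microsphere keratin. For Krt16 and S100a8 these are the only entries, and being listed was the condition for naming them here. Their folds are therefore not separate findings. The authors' deposited table for minoxidil array 2 lists none of the member probesets. Both sources put the larger keratin and microsphere keratin differences of Krt6a and Krt17 in the number 1 pairs, and both put Krt17 below untreated skin in the number 2 keratin pair. They were made from the same arrays. Probesets 1422784 and 1427700 of Krt6a are listed only for number 1 pairs, where folds of at least 2 were kept. Their larger number 1 differences are therefore not separate findings.

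How closely Krt6a and Krt17 varied together across arrays depended on the Krt6a probeset. By the probeset used, 1427700, their log2 values had a Pearson r of 0.89 over the 8 arrays and 0.87 over the 7 arrays other than minoxidil array 1. By probeset 1422784 these were 0.86 and 0.74, and by probeset 1422783 they were 0.30 and 0.63. The 3 Krt6a probesets correlated with each other at 0.63 to 0.94 over 8 arrays and at 0.89 to 0.98 over those 7. Krt16 and Krt17 had an r of 0.48 over 8 arrays and 0.01 over 7. S100a8 and Krt16 had -0.22 and -0.57. The arrays of a group are included in these values, and shared differences in quality and depth of signal enter every pair, so they are descriptions only.

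Many other genes followed the same pattern. Over the 7 arrays, 408 of the 10480 named genes compared had an r above 0.9 with Krt6a and 306 with Krt17. The closest to Krt6a were Gng12, a G protein subunit (r = 0.997), Ptrf, a caveolar coat gene (r = 0.995), and Lmo2, a transcriptional cofactor of blood and vessel cells (r = 0.994). With minoxidil array 1 included, these were 0.969, 0.98 and 0.963. The closest to Krt17 were Ighm, an immunoglobulin heavy chain (r = 1.000, and 0.426 over all 8 arrays), Pdcd6, a calcium-binding protein gene (r = 0.989 both ways), and Sesn3, a stress-responsive sestrin (r = 0.986 and 0.982). For Krt16 and S100a8 only 14 and 15 genes passed 0.9, led by Als2cl (r = 0.974) and Rap1gapos (r = 0.971). Over all 8 arrays these were 0.971 and 0.328. Some of the named genes read close to the filter on dim genes: Rap1gapos at 32.5 to 40.8, Ighm at 31.9 to 48.4 and Lmo2 at 37.6 to 47.7. All were picked as the highest of 10480 values over 7 arrays.

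Barrier alarm genes, which build the cornified envelope and are raised in wounded or irritated epidermis, included Sprr1a, which had a larger keratin minus untreated difference than any other list gene tested. Of 34 such genes 15 were found and 11 tested, and 0 passed. In keratin skin 9 were higher and 2 lower than in untreated skin, with a median log2 difference of 0.27 against 0.10 over all genes tested. Both pairs of same-numbered arrays were higher for 6 of the 11, against 44.2% of all genes. Under microsphere keratin 10 were higher and 1 lower, median 0.19, and under minoxidil 4 were higher and 7 lower, median -0.10. In the number 2 arrays alone 6, 9 and 7 of the 11 were higher with keratin, microsphere keratin and minoxidil, with medians of 0.31, 0.16 and 0.07, so the minoxidil direction turned. Over all genes tested 54.3%, 55.3% and 60.5% were higher in these pairs. Under quantile normalization 7, 9 and 4 of the 11 were higher. Sprr1a, a small proline-rich envelope precursor, read 67.3 and 76.4 in minoxidil skin, 350.1 and 123 in keratin skin, 225 and 91.1 in microsphere keratin skin, and 109 and 72.3 in untreated skin. Its keratin minus untreated difference was 1.23 ± 0.69 (SE), 1.68 between number 1 arrays and 0.77 between number 2 arrays (limma unadjusted p = 0.11, adjusted p = 1.00). Both keratin arrays were above all untreated and minoxidil arrays, but keratin array 2 was below microsphere keratin array 1. Other genes of the list were smaller or overlapped. Ivl, the envelope protein involucrin, differed by 0.59, and Lcn2, an antimicrobial protein induced by inflammation, read 27.3 to 33.6 on all arrays.

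The counts for signals upstream of the stress keratins changed with the arrays and the scaling used. Of 8 alarm cytokines and growth factor ligands tested, of 14 found, 4 were higher and 4 lower in keratin skin, and the same counts held under microsphere keratin and minoxidil. Il1b, a leading inflammatory cytokine, read 41.7 and 43.5 with minoxidil, 48.4 and 45.5 with keratin, 44.2 and 44.6 with microsphere keratin, and 46.4 and 44.1 in untreated skin. Of 15 receptors for these signals and for calprotectin, 9 were higher and 6 lower with keratin, 8 and 7 with microsphere keratin, and 3 and 12 with minoxidil. Their medians were 0.04, 0.00 and -0.10, and 0 of the 15 passed. In the number 2 arrays alone 3, 4 and 1 of the 8 ligands and 7, 5 and 7 of the 15 receptors were higher with keratin, microsphere keratin and minoxidil. Of all genes tested 54.3%, 55.3% and 60.5% were higher in these pairs. Under quantile normalization 2 of the 8 ligands and 5 of the 15 receptors were higher under each keratin preparation.

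Transcription factors of the stress response had small differences from untreated skin, with a median close to that of all genes tested under microsphere keratin. Of 19 tested, 17 were higher with keratin, median 0.17, and 18 with microsphere keratin, median 0.11, against medians of 0.10 over all genes in both comparisons. With keratin 6 of the 19 were higher without overlap, where 20.0% of all genes were. With the number 2 arrays alone 12 were higher in keratin skin, median 0.08, and 9 were higher and 10 lower with microsphere keratin, median -0.01. Under quantile normalization the counts were 12 and 11, with medians of 0.07 and 0.04 against 0.02 over all genes. Nfe2l2, the regulator of antioxidant genes also called Nrf2, read 28.7 and 69.2 with minoxidil, 94.9 and 90.5 with keratin, 86.6 and 63.1 with microsphere keratin, and 56.5 and 62.4 in untreated skin. Keratin minus untreated was 0.64 ± 0.41 (SE), 0.75 and 0.54 in the number 1 and number 2 pairs (limma adjusted p = 1.00). Cebpa and Klf6, regulators of keratinocyte differentiation, differed by 0.40 each. Under minoxidil 7 of the 19 were higher and 12 lower, median -0.06, or 11 and 8 under quantile normalization and 12 and 7 in the number 2 arrays alone.

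The counts for targets of Nrf2 changed with the arrays and the scaling used. Of 15 tested, 11 were higher and 4 lower with keratin, median 0.14, and 12 and 3 with microsphere keratin, median 0.16. Over all genes tested the median was 0.10 in both comparisons. In the number 2 arrays alone the counts for the list were 9 and 6 with keratin, median 0.05. With microsphere keratin they were 5 and 10, median -0.03. Under quantile normalization 7 were higher and 8 lower in both comparisons. Sqstm1, an autophagy receptor that also acts on Nrf2, read 36.7 and 120.2 with minoxidil, 100.02 and 183 with keratin, 139 and 66.4 with microsphere keratin, and 46.6 and 74.5 in untreated skin. Its keratin difference was 1.20 ± 0.65 (SE). Gstm1, a glutathione transferase, read 38.4 and 97.2 with minoxidil, 150.0 and 152 with keratin, 153 and 80.7 with microsphere keratin, and 76.8 and 82.3 in untreated skin, a keratin difference of 0.93 ± 0.55 (SE). Both genes were similar in the number 1 and number 2 keratin pairs, at 1.10 and 1.30 for Sqstm1 and 0.97 and 0.89 for Gstm1. Neither passed the test (limma adjusted p = 1.00 for both). Under minoxidil 4 of the 15 were higher and 11 lower, median -0.09, but in the number 2 arrays alone 10 were higher and 5 lower, median 0.13.

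Genes of the migrating wound edge and its matrix differed little. Of 13 tested, 12 were higher and 1 lower with keratin, median 0.13, and 10 and 3 with microsphere keratin, median 0.10. Over all genes tested the median was 0.10 in both comparisons. The counts for the list were 6 and 7, and 7 and 6, under quantile normalization. With minoxidil 9 were higher and 4 lower, median 0.03. In the number 2 arrays alone 7, 7 and 10 of the 13 were higher with keratin, microsphere keratin and minoxidil, with medians of 0.01, 0.05 and 0.08. Mmp14, a membrane collagenase, read 124 and 121 in keratin skin and 142 and 133 in microsphere keratin skin, against 108 and 109 in untreated skin, differences of 0.17 and 0.34 on the log2 scale. Plau, the urokinase protease of migrating keratinocytes, differed by -0.08 with keratin.

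**Figure D3:**
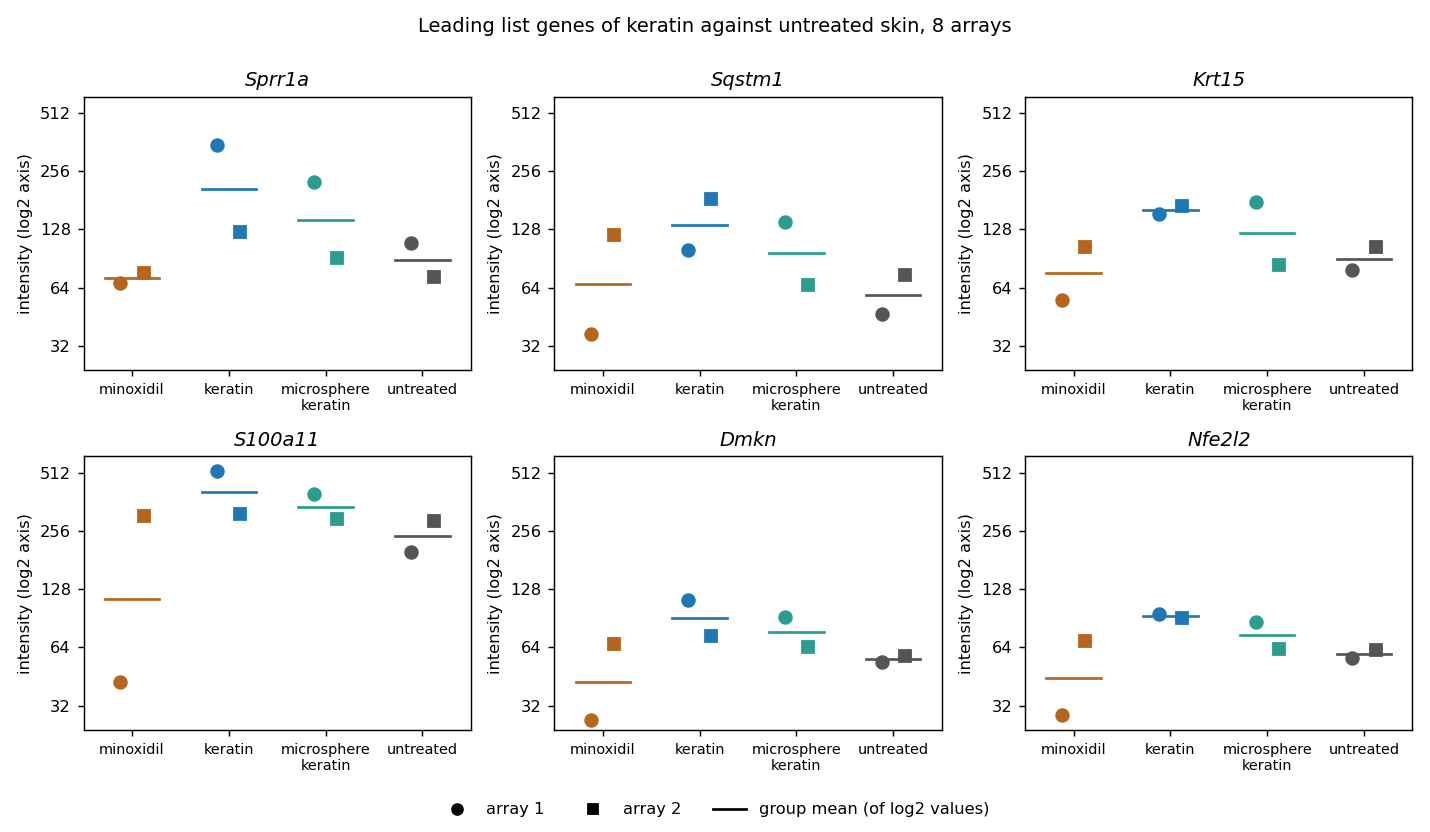
Intensity on a log2 axis of the leading gene of 6 lists in the keratin comparison, by treatment and array. Circles are number 1 arrays, squares number 2 arrays and bars group means of log2 values; both keratin arrays lie above both untreated arrays in each panel, as the rule for naming genes requires, from a difference of 0.64 for Nfe2l2 to 1.23 for Sprr1a.

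Keratins of the resting epidermis, the chains of unstressed basal and suprabasal layers, were higher under keratin throughout. All 8 tested were higher in keratin skin, in both pairs of same-numbered arrays, and 5 did not overlap untreated skin. Over all genes tested 44.2% were higher in both pairs and 20.0% were higher without overlap. The median was 0.55, with 0.67 and 0.33 in the number 1 and number 2 pairs, and all 8 stayed higher under each of the 3 scalings tried. Krt15, a marker of basal and bulge cells, read 55.5 and 104 with minoxidil, 154 and 168 with keratin, 178 and 84.0 with microsphere keratin, and 78.8 and 103 in untreated skin, a keratin difference of 0.83. Krt5, the basal type II chain, read 163 and 524 with minoxidil, 575 and 580.5 with keratin, 494 and 477 with microsphere keratin, and 258 and 464 in untreated skin, a keratin difference of 0.74. All 8 were also lower with microsphere keratin than with keratin, median -0.38, and 4 did not overlap, against 10.5% of all genes. Krt1 and Krt10, the chains of differentiated layers, differed by -0.59 and -0.37. None of the 8 passed in either comparison (limma adjusted p = 1.00 for the genes named here). Under microsphere keratin 6 were higher and 2 lower than untreated, median 0.16, but in the number 2 arrays alone 1 was higher and 7 lower, median -0.09. Under minoxidil 2 were higher and 6 lower, median -0.24, or 4 and 4 under quantile normalization, and in the number 2 arrays alone 5 were higher and 3 lower, median 0.05.

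Of 10 genes of suprabasal differentiation tested, 9 were higher and 1 lower with keratin, and 8 and 2 with microsphere keratin, with a median of 0.21 in both, and under minoxidil 1 was higher and 9 lower. In the number 2 arrays alone 7, 6 and 4 of the 10 were higher with keratin, microsphere keratin and minoxidil, with medians of 0.04, 0.05 and -0.05. Under quantile normalization 8, 6 and 2 were higher, with medians of 0.11, 0.08 and -0.34. Dmkn, a secreted protein of the upper epidermis, read 113 and 73.1 in keratin skin and 92.5 and 64.04 in microsphere keratin skin, against 53.8 and 57.8 in untreated skin. Of the other S100 genes, relatives of calprotectin, 10 were found and 8 tested. All 8 were higher under both preparations, median 0.49 with keratin and 0.35 with microsphere keratin, and all 8 were lower with minoxidil, median -0.38. Over all genes tested the medians were 0.10 with keratin, 0.10 with microsphere keratin and -0.02 with minoxidil. Between number 1 arrays 79.2%, 73.6% and 41.4% of all genes tested were higher in the same order. In the number 2 pairs alone 5, 7 and 5 of the 8 were higher with keratin, microsphere keratin and minoxidil, and under quantile normalization 7, 7 and 2. S100a11 read 42.3 and 306 with minoxidil, 522 and 312 with keratin, 398 and 293 with microsphere keratin, and 199 and 288 in untreated skin. Of 12 cell division genes, 7 were higher with keratin, 12 with microsphere keratin and 6 with minoxidil. The medians were 0.02, 0.24 and -0.06, and 2, 12 and 6 were higher in the number 2 pairs alone, and 4, 10 and 4 under quantile normalization.

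**Figure D4:**
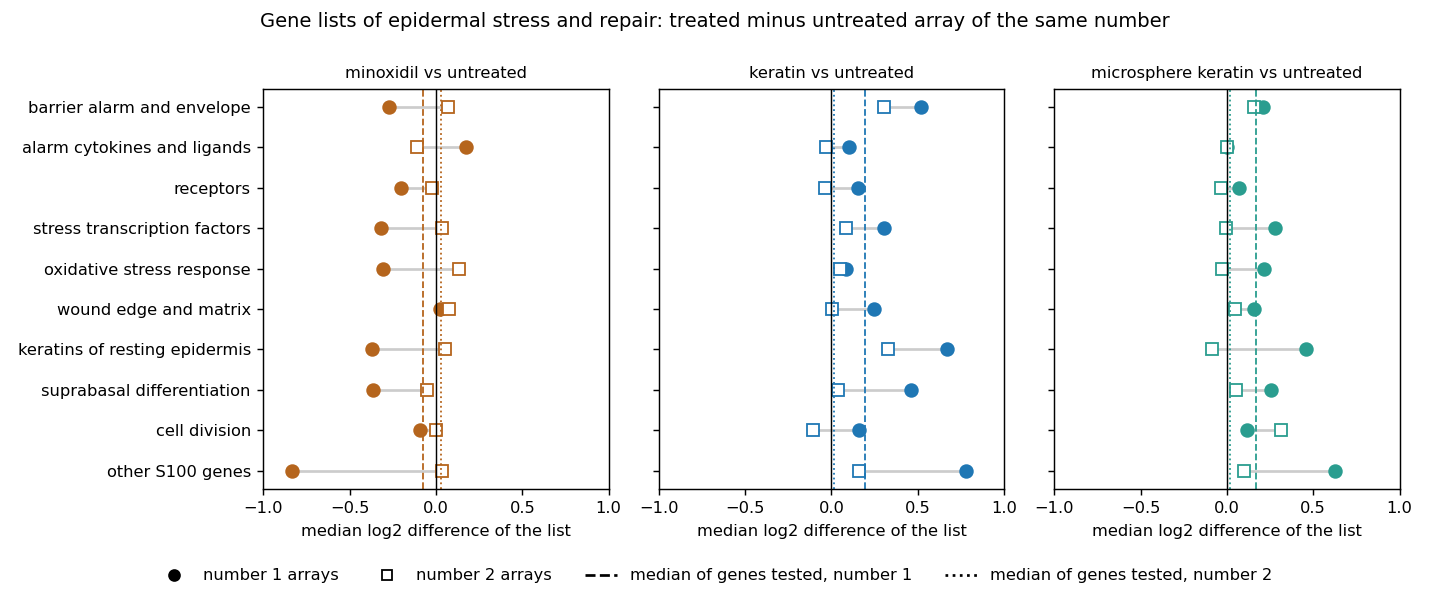
Median log2 difference of each gene list between treated and untreated arrays of the same number. Filled circles are number 1 arrays, open squares number 2 arrays, and dashed and dotted lines the medians over all genes tested; the keratins of resting epidermis had 0.67 and 0.33 under keratin, and the other S100 genes 0.78 and 0.16.

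Markers of other cells moved with some of these values. Of 13 neutrophil markers 5 were found and 4 tested, and their summed intensity was 185 to 196 in minoxidil skin, 186 to 210 in keratin skin, 183 to 188 in microsphere keratin skin and 191 in both untreated arrays. The neutrophil granule genes Elane, Ltf and Ngp read 34.3 to 46.9 on all arrays, close to the filter on dim genes. Macrophage markers, 12 of 13 found, summed to 1023 and 910 in the number 1 arrays of keratin and microsphere keratin, the arrays in which Krt6a and Krt17 were highest, against 510.5 to 594 elsewhere. Langerhans cell markers, 6 of 6 found, summed to 1068 and 911 in those 2 arrays, against 367 to 547 elsewhere, although Cd207, which defines these cells, read only 31.8 to 39.0. Fibroblast markers, 7 of 7 found, summed to 3939 and 4494 there, against 372 to 2303 elsewhere. Keratinocyte markers, 10 of 10 found, summed to 3000 and 2624 there, to 721 in minoxidil array 1 and 2045 in untreated array 1, and to 3185 to 3495 in the number 2 arrays. Outer root sheath markers, 7 of 9 found, include Krt17. The 6 without Krt17 summed to 629.5 in keratin array 1 and 528 in microsphere keratin array 1, against 265 to 547 elsewhere, so the microsphere keratin array lay within the range of the others. Skeletal muscle markers, all 8 found, ranged from 285 in minoxidil array 1 and 2500 in untreated array 1 to 15006 in minoxidil array 2. The part of cell composition and array quality in the values of Krt6a and Krt17 was not tested.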

How the data were processed

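The authors' deposited value table gives linear intensity for 45141 probesets of a mouse HT_MG-430_PM array in 8 samples. The submitters' processing notes name RMA, Transcriptome Analysis Console and Affymetrix Expression Console, without versions. How the value table was normalized is not given in the sources used here. Medians of the arrays were 35.9 to 37.7, and whether background was subtracted is not given either. The authors' deposited comparison tables hold, for each condition, log2 values and a fold change given as a signed score, below 0 for a lower condition. They list 28918 probesets and keep folds of at least 2 or 1.3 in these same samples, so which genes have a name here depends on the data. The table named for minoxidil array 1 repeats all 9387 rows of the microsphere table and was not used. The p-values of 1 such table, deposited by the authors, were not used.

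Log2 was taken of the intensities. For each gene the single-symbol probeset with the highest mean was kept. Testing was limited to genes whose mean reached the 25th percentile (log2 of 5.14). Linear models were fitted in R 4.3.3 with limma 3.58.1 (lmFit and eBayes with an intensity trend, 4 group means, 4 residual degrees of freedom) with Benjamini-Hochberg adjustment and a threshold of 0.05. No exact permutation test was run, since its smallest two-sided p for 2 arrays against 2 is 0.333. The number of arrays limits the precision. On simulated data for the keratin comparison over 11235 genes, 38% of 2-fold and 73% of 4-fold changes were recovered. The simulated noise was independent and equal in the 4 groups, unlike the spread between the real arrays. These shares are averages over genes of all brightness. They do not give the recovery for Krt6a and Krt17, whose differences had SEs of 0.69 and 0.61.

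The genes and lists were chosen with earlier results of these data known. Named genes were the 6 genes where found, up to 3 genes of each list and comparison with the largest difference among those without overlap, and the 3 genes most like each gene over 7 arrays; predicted genes were skipped. Lcn2, Cd207, Elane, Ltf and Ngp were named after their values were seen. Older symbols were matched through the RefSeq gene table of GRCm38.p6, used for names and gene order only. Plots were made in Python 3.11.15 with matplotlib 3.10.9. Alternatives covered scaling, filters, probesets, the variance model, thresholds, array weights, a block for the replicate number, and arrays left out.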

Additional observations from a re-analysis of the deposited data

How the results depend on the processing

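No member passed the test under any of the alternatives run. The count of genes past the threshold was 0 in each pairwise comparison, and 0 in the moderated F test, under each alternative except those named here. Without minoxidil array 2, when minoxidil array 1 alone stands for its group and is assumed to vary like the others, the counts were 860 against untreated, 1660 against keratin, 1467 against microsphere keratin and 163 in the F test. Leaving out each array in turn, the counts ranged from 0 to these values, and stayed 0 in the 3 comparisons without minoxidil. At an unadjusted p below 0.05 they were 50, 46 and 10 for the minoxidil, keratin and microsphere keratin comparisons with untreated, 14 for microsphere keratin against keratin, 125 and 28 for minoxidil against keratin and microsphere keratin, and 15 in the F test.

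Minoxidil minus untreated for Krt6a changed sign to 0.62 under quantile normalization, 0.13 without minoxidil array 1 and untreated array 1, and 0.10 by probeset 1422783, and ran from -0.21 to 0.20 as arrays were left out in turn (0.06 without untreated array 2). For Krt17 it was 0.026 without minoxidil array 1 and untreated array 1, and ran from -0.91 without minoxidil array 2 to 0.38 without minoxidil array 1, with 0.09 without untreated array 2. Microsphere keratin minus keratin changed sign for Krt6a, to 0.0082 by probeset 1422784, 0.23 without keratin array 1 and 0.24 without microsphere keratin array 2 (range -0.26 to 0.24). For Krt17 it was -0.40 without keratin array 2 and -0.13 without microsphere keratin array 1 (range -0.40 to 0.44). These differences lie within the spread between arrays. As arrays were left out in turn, keratin minus untreated stayed positive, at 0.19 to 0.67 for Krt6a and 0.12 to 0.96 for Krt17, as did microsphere keratin minus untreated, at 0.16 to 0.67 and 0.20 to 0.91. Under quantile normalization the keratin values were 0.20 and 0.32 and the microsphere keratin values 0.19 and 0.32. For Krt6a, minoxidil minus keratin and minoxidil minus microsphere keratin changed sign under quantile normalization, to 0.42 in both, and ran from -0.67 to -0.19 and from -0.67 to -0.17 as arrays were left out. For Krt17 they ran from -1.45 to -0.16 and from -1.47 to -0.18, and were smallest in size without minoxidil array 1. The cause of these shifts was not tested.

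Same-numbered arrays deviated together at correlations of 0.112 to 0.594 between groups. With 2 numbers and no label that gives them a meaning, they are not treated as pairs; with the replicate number as a block, 0 genes passed in each comparison, so the block changed no call. The planned comparison with the authors' tables is given in the text, since those tables hold no replicates, and the planned look at protein and promoter sequence was not run. List counts in the number 2 arrays alone and under 3 scalings, and the alternatives for Krt6a and Krt17 between minoxidil and the keratin preparations, and the marker sum without Krt17, were added after seeing the data. Signal over background limits Krt16 and S100a8.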
